A study of Mus musculus with 12 samples.

Results

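The subject is Trp53, the mouse gene for the transcription factor p53, and 9 of its core target genes: Mdm2, Cdkn1a, Ccng1, Plk2, Gdf15, Phlda3, Trp53inp1, Sesn1 and Zmat3. Members were taken by gene symbol from a list of core targets that was drawn up with earlier results of these data known, and all 10 had an entry among the 15803 transcripts listed in at least 1 library. They were followed in KPC cells, a line of mouse pancreatic ductal adenocarcinoma (PDAC). According to the study's methods, the line came from tumors of a mouse that carried a conditional point mutation in Trp53, switched on in the pancreas by Pdx1-Cre. Every group shares this origin, and no group with an unaltered Trp53 was included. The deposited values hold expression only, so whether a read came from the mutant or another allele could not be told. Cells received PBS or 20 μM cisplatin (Cis) for 6 or 21 h, and each of the 3 conditions had 2 footprint and 2 RNA-seq libraries, 12 in all. The labels call the control cells untreated and the methods name PBS. No label gives how long the controls were kept, and both times were compared with these same controls.

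Cis forms crosslinks in DNA. DNA damage normally stops Mdm2, a ubiquitin ligase, from marking p53 for degradation, and p53 then accumulates and activates genes that arrest the cell cycle, repair DNA or start cell death. Mdm2 is itself a target, which closes a feedback loop. Several targets also have other activators, such as the factors of the integrated stress response, and point-mutant p53 proteins commonly lose sequence-specific activation. Much of the control of p53 acts on the protein, which was not measured here.

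Ribosome profiling sequences the mRNA fragments that ribosomes protect from RNase, so footprints on a coding sequence measure its translation relative to that of other transcripts. RNA-seq measures the mRNA, and footprints over RNA give the translational efficiency (TE). Values are RPKM, which are reads divided by length and by the library total. The paper reports that Cis inhibited protein synthesis in a puromycin assay. A rise in footprint RPKM is a rise relative to the library, and absolute protein output was not measured in these libraries. The length was the coding sequence for footprints and the whole transcript for RNA. Footprint libraries held 3375480 to 5204127 reads. RNA-seq libraries held 1985344 to 2901692, of which 51.8% to 56.6% lay in Lars2, Tmem38b and Mettl26, so RNA values of the members rest on fewer reads. Of the epithelial markers, Krt8 footprints lay between 3214 and 4949 RPKM and Cdh1 between 88.3 and 147 RPKM, whereas Epcam did not exceed 1.83 and Cldn4 0.940 RPKM. Footprints of the leukocyte marker Ptprc and the endothelial marker Cdh5 did not exceed 0.229 and 0.126 RPKM, and both were at 0 in every RNA library. The leukocyte markers Cd68 and Lyz2 reached 5.398 and 4.28 RPKM in footprints. Cd68 RNA reached 4.27 RPKM, while Lyz2 was at 0 in every RNA library. Of the mesenchymal markers, Vim footprints lay between 2867 and 3862 RPKM and Fn1 between 38.3 and 49.2 RPKM. Footprints of Cdh2 and Zeb1 did not exceed 31.7 and 9.17 RPKM. Nothing in the labels says that replicates were separate cultures, so p-values measure the spread between these libraries, which may be technical. Replicates differed by more than sampling noise in every group, with a chi-square of 1.45 to 3.97 per degree of freedom.

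Promoter sequence is shown for the members whose start region holds the 10-base half-site consensus of p53, since p53 binds pairs of such half-sites. Windows of 300 bases, from 250 before to 50 after the RefSeq transcript start on GRCm38.p6, were at hand for 8 of the 10 members. The stretches below run 5′ to 3′ on the strand of the gene, lie before the transcript start, and have matches to the half-site in capitals.
Cdkn1a (chr17:29090896-29090947, plus strand): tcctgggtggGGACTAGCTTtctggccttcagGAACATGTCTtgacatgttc
Trp53 (chr11:69580274-69580303, plus strand): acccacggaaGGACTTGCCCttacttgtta
Mdm2 (chr10:117710925-117710954, minus strand): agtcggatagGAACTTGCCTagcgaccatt
Ccng1 (chr11:40755452-40755481, minus strand): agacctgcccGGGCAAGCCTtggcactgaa
Sesn1 (chr10:41887256-41887285, plus strand, 1 of 2 windows): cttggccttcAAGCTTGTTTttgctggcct

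Cdkn1a held 2 half-sites, which began 73 and 51 bases before the start with 12 bases between them, and the other 4 genes held 1 each. The last 10 bases shown for Cdkn1a, which follow the second half-site directly, differ from the consensus at their first base only. The windows of Gdf15, Phlda3 and Plk2, and a second window of Cdkn1a and of Sesn1, held none. A half-site stood in 45.5% of the 11 member windows and in 8.36% of all 32851 windows, and a pair with a spacer of up to 13 bases in 0.0731% of all windows. The consensus reads the same on both strands. A match is a string of letters and not a bound site, and sites farther from the start lie outside these windows.

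With PBS, Trp53 was the most translated member by a wide margin. Its footprints were 198 and 168 RPKM, above 92.1% of the listed transcripts, and its RNA was 33.7 and 32.5 RPKM. Footprints of Cdkn1a, the p21 inhibitor of cyclin-dependent kinases, followed at 56.0 and 54.9 RPKM. Ccng1 (cyclin G1) had 29.4 and 34.8 RPKM and Mdm2 25.1 and 28.7 RPKM, ranges that lay close together without overlapping. Trp53inp1, Zmat3, Phlda3 and Plk2 lay between 9.72 and 14.4 RPKM, and their ranges overlapped. Sesn1 had 2.67 and 1.95 RPKM, from 23 and 15 reads, and Gdf15 was at the limit of detection (0.634 and 0.472 RPKM, from 3 and 2 reads). The order differed at the RNA level, where Ccng1 (12.6 and 11.2 RPKM) and Phlda3 (10.8 and 12.2 RPKM) came next after Trp53 and did not differ beyond their spread.

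**Figure D1:**
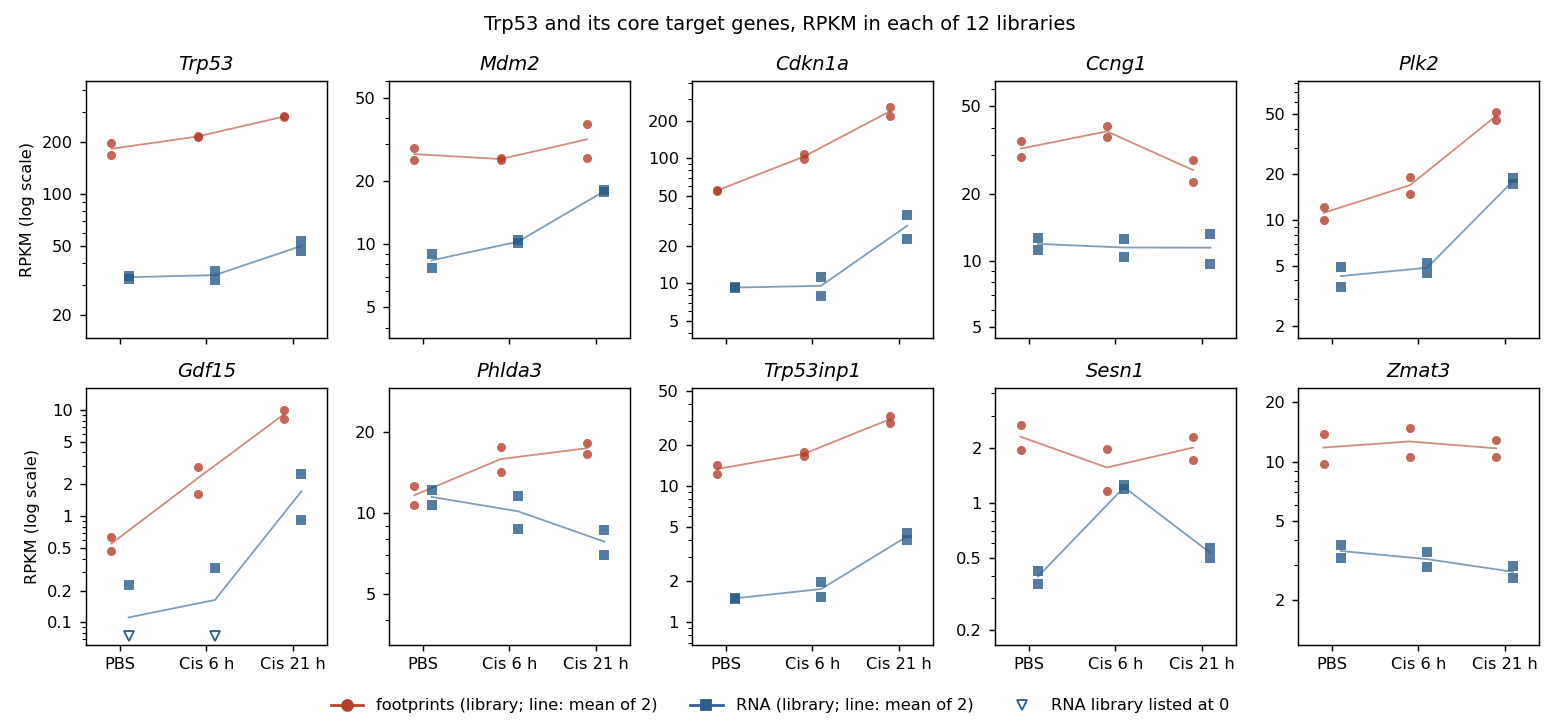
RPKM of the 10 genes in each library (vertical axes logarithmic, a separate range for each gene), with circles for footprints, squares for RNA, lines through the means of 2 libraries and open triangles for the RNA libraries in which Gdf15 is listed at 0. Cdkn1a, Plk2 and Gdf15 footprints at 21 h lie above both PBS libraries. Mdm2 rises in RNA from 7.73 and 9.01 to 17.7 and 18.1 RPKM. Zmat3 footprints stay near their PBS levels, and Zmat3 RNA at 21 h lies below both PBS libraries. Ccng1 footprints lie above both PBS libraries at 6 h and below both at 21 h.

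At 21 h some members rose well beyond the spread between libraries, while others stayed within or near it. Footprints were tested for all 10 genes, of which 6 passed as higher and 0 as lower (limma, Benjamini-Hochberg over all transcripts, threshold 0.05), while 7 had an unadjusted p under 0.05. Of all 10390 transcripts tested, 18.9% were higher and 20.2% lower, and 5045 had an unadjusted p under 0.05. The call of Gdf15 is part of the count of 6, although Gdf15 passed the filter of a mean of 1 RPKM only through its treated libraries and so had to differ. The median log2 fold change was 0.56 over the members and 0.01 over all transcripts. RNA was tested for 8 genes, since Gdf15 and Sesn1 had a mean under 1 RPKM, and 5 were higher and 0 lower, against 11.6% and 12.2% of 9459 transcripts. The RNA count of members was lower without PBS replicate 1 or 2 or without 21 h replicate 1, and so was the count over all transcripts. Cdkn1a, Plk2, Trp53inp1 and Trp53 rose in both assays. Gdf15 and Phlda3 passed in footprints, where the RNA of Gdf15 was not tested and that of Phlda3 did not pass. Mdm2 passed in RNA and not in footprints, and Ccng1, Zmat3 and Sesn1 did not pass against PBS in any assay in which they were tested. The difference between the assays was tested as TE.

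**Figure D2:**
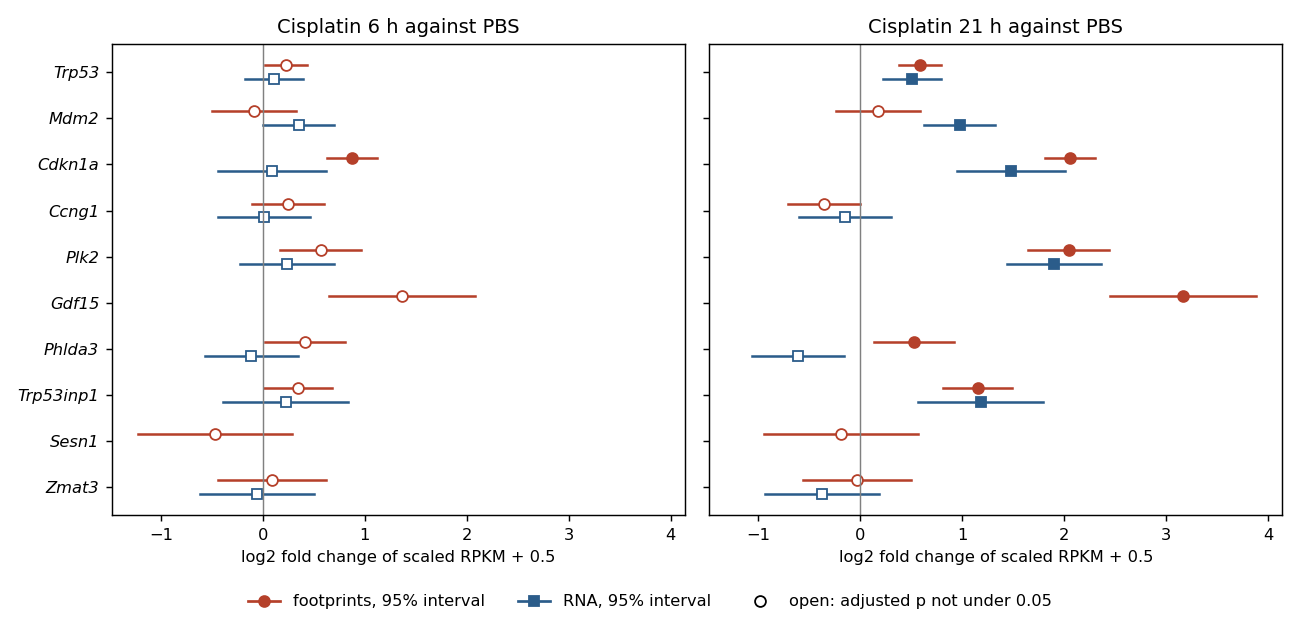
Log2 fold change of scaled RPKM + 0.5 against PBS at 6 h (left) and 21 h (right), with circles for footprints, squares for RNA and bars for 95% intervals; filled symbols have an adjusted p under 0.05. At 6 h only Cdkn1a footprints (0.87) are filled, and at 21 h the filled footprint changes run from 0.53 (Phlda3) to 3.17 (Gdf15).

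Trp53 itself rose modestly. Its footprints were 198 and 168 RPKM with PBS, 215 and 216 RPKM at 6 h, and 281 and 280 RPKM at 21 h. Both libraries at 21 h were above the other 4. The log2 fold change at 21 h was 0.59 ± 0.09 (SE, n = 2 against 2, adjusted p = 0.00132, limma), or 1.5-fold. Trp53 RNA was 33.7 and 32.5 RPKM with PBS, 36.1 and 32.0 RPKM at 6 h, and 53.3 and 47.0 RPKM at 21 h. It was 1.42-fold higher at 21 h (log2 0.51 ± 0.13 SE, adjusted p = 0.0182, limma). That call was lost under 5 of 19 alternatives, among them eBayes without a trend and leaving out PBS replicate 1 or 2 or 21 h replicate 1. Wrap53, a telomerase and Cajal body factor whose gene starts beside Trp53 on the opposite strand, also rose. Its RNA was 4.30 and 4.37 RPKM with PBS and 11.1 and 12.4 RPKM at 21 h (log2 1.26 ± 0.19 SE, adjusted p = 0.00183, limma). Wrap53 footprints rose by 0.79 ± 0.21 SE on the log2 scale (adjusted p = 0.0194, limma). This call was lost under 4 of 18 alternatives, among them eBayes without a trend and leaving out PBS replicate 2 or 21 h replicate 2. Whether counting used the strand is not stated, so RNA reads of any overlap between these neighbours cannot be told apart.

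Mdm2, the ligase that limits p53, changed in RNA and not measurably in footprints. Its RNA was 7.73 and 9.01 RPKM with PBS, 10.1 and 10.5 RPKM at 6 h, and 17.7 and 18.1 RPKM at 21 h. The 3 conditions did not overlap, and RNA at 21 h was 1.96-fold that with PBS (log2 0.97 ± 0.16 SE, adjusted p = 0.00239, limma). Mdm2 footprints were 25.1 and 28.7 RPKM with PBS, 25.7 and 25.2 RPKM at 6 h, and 37.5 and 25.8 RPKM at 21 h. One library at 21 h was above and the other within the PBS range, and the log2 fold change of 0.17 had a 95% interval of -0.24 to 0.58 (adjusted p = 0.476, limma). Relative to Trp53 in the same library, Mdm2 footprints were 0.127 and 0.171 with PBS and 0.133 and 0.0920 at 21 h, and Mdm2 RNA was 0.229 and 0.277 with PBS and 0.332 and 0.384 at 21 h. In RNA the level relative to Trp53 was thus above the PBS range, and in footprints it was not.

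Mdm4, the partner of Mdm2 that inhibits p53 without ligase activity of its own, had fewer footprints at 21 h. They were 7.71 and 7.59 RPKM with PBS, 6.52 and 6.85 RPKM at 6 h, and 5.54 and 2.34 RPKM at 21 h, the last from 12 reads. The log2 fold change at 21 h was -1.01 ± 0.32 (SE, adjusted p = 0.0366, limma). The call was lost under 9 of 18 alternatives, among them 5 that left out a library, and without 21 h replicate 2 the change was -0.46. Mdm4 RNA was 5.94 and 8.46 RPKM with PBS and 11.2 and 12.2 RPKM at 21 h, and it did not pass (log2 0.61, adjusted p = 0.0617, limma).

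Cdkn1a rose strongly at 21 h, while at 6 h its footprints rose less and the call was lost under 7 of 18 alternatives. Its footprints were 56.0 and 54.9 RPKM with PBS, 108 and 98.8 RPKM at 6 h, and 260.5 and 217 RPKM at 21 h. The 3 conditions did not overlap, and footprints were 1.83-fold higher at 6 h and 4.16-fold higher at 21 h (log2 2.06 ± 0.11 SE, adjusted p = 8.34e-06, limma). Cdkn1a RNA was 9.18 and 9.28 RPKM with PBS, 11.1 and 7.91 RPKM at 6 h, and 35.1 and 22.8 RPKM at 21 h. RNA at 6 h lay on both sides of the PBS libraries, and at 21 h it was 2.79-fold higher (log2 1.48 ± 0.24 SE, adjusted p = 0.00233, limma). Cdkn1a footprints were 0.283 and 0.327 of those of Trp53 with PBS, 0.502 and 0.457 at 6 h, and 0.926 and 0.776 at 21 h. Its paralog Cdkn1b (p27) rose 1.29-fold in footprints at 21 h (120.2 to 122 RPKM with PBS against 160.2 to 161 RPKM, adjusted p = 0.00706, limma) and did not pass in RNA.

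Plk2, a polo-like kinase induced by stress, also rose strongly. Its footprints were 10.1 and 12.3 RPKM with PBS, 19.2 and 14.8 RPKM at 6 h, and 45.7 and 51.6 RPKM at 21 h (log2 2.05 ± 0.18 SE at 21 h, adjusted p = 8.74e-05, limma). Plk2 RNA was 3.63 and 4.92 RPKM with PBS, 5.22 and 4.49 RPKM at 6 h, and 19.0 and 17.4 RPKM at 21 h (log2 1.90 ± 0.21 SE, adjusted p = 0.000346, limma). Footprints at 6 h were already above both PBS libraries, while RNA at 6 h overlapped them. Its paralog Plk3 rose in both assays, by 2.27 in footprints and 1.90 in RNA on the log2 scale. The mitotic kinase Plk1 rose by 0.48 in footprints (adjusted p = 0.0164, limma), while its RNA did not pass, and this call was lost without PBS replicate 1 or 21 h replicate 2 (up to 0.101).

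Ccng1, a cyclin that recruits phosphatase to Mdm2, did not rise at 21 h. Its footprints were 29.4 and 34.8 RPKM with PBS, 40.6 and 36.3 RPKM at 6 h, and 28.6 and 22.7 RPKM at 21 h. Those at 6 h lay above both PBS libraries, with a log2 fold change of 0.24 that did not pass (95% interval -0.11 to 0.60). Those at 21 h lay below both PBS libraries, with a log2 fold change of -0.36 that did not pass (95% interval -0.71 to -0.0039, adjusted p = 0.0998, limma). The change at 21 h was -0.51 without 21 h replicate 1 and -0.19 without 21 h replicate 2. Ccng1 RNA was 12.6 and 11.2 RPKM with PBS, 10.3 and 12.6 RPKM at 6 h, and 13.2 and 9.67 RPKM at 21 h, ranges that overlapped (log2 -0.15 at 21 h, 95% interval -0.60 to 0.31). For its paralog Ccng2 the RNA was 15.6 and 16.6 RPKM with PBS and 26.0 and 26.4 RPKM at 21 h (log2 0.60, adjusted p = 0.00971, limma, and 0.0662 without PBS replicate 1), and its footprints did not pass (log2 0.08).

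Gdf15, a secreted stress cytokine, had the largest footprint change among the members, from very few reads. It had 3 and 2 footprint reads with PBS, 7 and 9 at 6 h, and 34 and 26 at 21 h. Those reads correspond to 0.634 and 0.472, 1.64 and 2.93, and 10.1 and 8.19 RPKM. The ratio of reads per library total at 21 h to that with PBS was 16.5, with a 95% counting interval of 6.69 to 52.6 (exact binomial, counting error only), and at 6 h it was 3.91 (1.37 to 13.7). The fitted log2 fold change at 21 h was 3.17 ± 0.31 (SE), and its size depends on the pseudocount of 0.5 RPKM. With PBS the mean was 0.553 RPKM, under the filter, so that its adjusted p is not given as support. Gdf15 RNA had 0 and 1 reads with PBS, 1 and 0 at 6 h, and 9 and 3 at 21 h. The RNA ratio at 21 h was 14.6 with an interval of 2.15 to 623, and none is given at 6 h, where both groups were under 3 reads per library.

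The stress-response factors Ddit3 (CHOP) and Atf3, which also activate Gdf15, rose beside it. Ddit3 footprints were 11.8 and 11.1 RPKM with PBS, 18.2 and 20.0 RPKM at 6 h, and 153 and 140.3 RPKM at 21 h (log2 3.59 ± 0.12 SE, adjusted p = 1.11e-06, limma). Atf3 footprints were 19.5 and 19.4 RPKM with PBS, 41.6 and 37.1 RPKM at 6 h, and 243 and 269 RPKM at 21 h (log2 3.65 ± 0.11 SE, adjusted p = 1.11e-06, limma). In RNA at 21 h, Ddit3 was higher by 2.38 and Atf3 by 3.46 on the log2 scale. The part of these factors in the change of Gdf15 was not tested.

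Phlda3, an inhibitor of the Akt kinase, rose in footprints, while its RNA values were lower without passing. Its footprints were 10.8 and 12.6 RPKM with PBS, 17.6 and 14.2 RPKM at 6 h, and 16.6 and 18.3 RPKM at 21 h, all 4 treated libraries above both PBS libraries. They rest on 18 to 31 reads per library. The rise at 21 h was 1.44-fold (log2 0.53 ± 0.17 SE, adjusted p = 0.0378, limma). The call was lost under 9 of 18 alternatives, including voom, the replicate block and each of the 4 fits that left out a PBS or 21 h library (adjusted p up to 0.207). Phlda3 RNA was 10.8 and 12.2 RPKM with PBS, 11.6 and 8.75 RPKM at 6 h, and 8.68 and 7.0 RPKM at 21 h, the last pair below both PBS libraries. Its log2 fold change of -0.61 did not pass (95% interval -1.06 to -0.15, adjusted p = 0.0555, limma) and passed without 6 h replicate 1 or 2, at a mean of at least 5 RPKM, with quantile normalization and with only the compared groups fitted (adjusted p from 0.0434). Its paralog Phlda1 rose in both assays, from 154 and 168 to 304 and 312 RPKM in footprints and by 1.06 in RNA on the log2 scale.

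Trp53inp1, which promotes autophagy and p53-dependent death, rose to a like extent in both assays. Its footprints were 12.3 and 14.4 RPKM with PBS, 16.7 and 17.8 RPKM at 6 h, and 32.9 and 29.1 RPKM at 21 h (log2 1.15 ± 0.15 SE, adjusted p = 0.000583, limma). Its RNA was 1.5 and 1.47 RPKM with PBS, 1.96 and 1.52 RPKM at 6 h, and 4.53 and 3.98 RPKM at 21 h (log2 1.18 ± 0.27 SE, adjusted p = 0.0131, limma). The RNA rests on 19 to 57 reads per library, and its call was lost without PBS replicate 1 or 2 or 21 h replicate 1 (up to 0.0787).

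Zmat3, an RNA-binding zinc finger protein, showed no change that passed the threshold. Its footprints were 9.72 and 13.8 RPKM with PBS, 14.7 and 10.6 RPKM at 6 h, and 12.8 and 10.5 RPKM at 21 h, with a log2 fold change of -0.03 at 21 h whose 95% interval was -0.57 to 0.50. Its sign was positive with unscaled RPKM and with quantile normalization. Zmat3 RNA was 3.80 and 3.27 RPKM with PBS, 3.49 and 2.94 RPKM at 6 h, and 2.97 and 2.58 RPKM at 21 h (log2 -0.37 at 21 h, 95% interval -0.93 to 0.19). RNA at 21 h lay below both PBS libraries, and its change stayed negative under all 18 alternatives (-0.49 to -0.25). The intervals allow a rise or fall of moderate size in footprints.

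Sesn1, a sestrin that restrains mTORC1, had few reads, with 9 to 23 in footprints per library. Its footprints were 2.67 and 1.95 RPKM with PBS, 1.16 and 1.97 RPKM at 6 h, and 2.30 and 1.73 RPKM at 21 h, ranges that overlapped (log2 -0.19 at 21 h, 95% interval -0.94 to 0.57, positive with quantile normalization). Sesn1 RNA had 4 and 4 reads with PBS, 9 and 11 at 6 h, and 5 and 4 at 21 h. The ratio of RNA reads per library total at 6 h to that with PBS was 3.12 (exact counting interval 1.32 to 8.20), and at 21 h it was 1.37 (0.468 to 4.07). Sesn1 and Gdf15 RNA were under the filter of the fit, so these ratios carry no test between libraries. The paralog Sesn2 was higher in footprints at 21 h, with 5.47 and 5.22 RPKM with PBS and 11.1 and 13.9 RPKM at 21 h (log2 1.11 ± 0.22 SE, adjusted p = 0.00428, limma), and its RNA did not pass (log2 0.72, adjusted p = 0.105).

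In all, 15 paralogs were listed beside the members and 13 were tested. Mdm4, Sesn2 and Plk3 also belong to the list of other p53 pathway genes below, so the counts of these lists share them. In footprints at 21 h, 5 were higher (Cdkn1b, Sesn2, Phlda1, Plk1 and Plk3) and Mdm4 lower, and in RNA 3 were higher (Ccng2, Phlda1 and Plk3) and 0 lower. Of all transcripts, 18.9% were higher and 20.2% lower in footprints, and 11.6% and 12.2% in RNA.

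At 6 h, Cdkn1a was the single member that passed in footprints (log2 0.87 ± 0.11 SE, adjusted p = 0.0148, limma), where 1.05% of all transcripts were higher and 0.991% lower. It no longer passed when any of the 4 PBS or 6 h libraries was left out (adjusted p up to 0.119, log2 fold change 0.81 to 0.94 over 18 alternatives). Of the 10 members, 6 had an unadjusted p under 0.05, all of them higher than with PBS, as had 2217 of the 10390 transcripts, 1071 of them higher. Gdf15 is among the 6 members and had the largest change, at 1.36. It passed the filter only through its treated libraries, so its p-values are not given as support. Plk2 came after Cdkn1a, at 0.56 (adjusted p = 0.120, limma, and 0.0148 with voom on the recovered reads). The median over the members was 0.29 and that over all transcripts -0.01. In RNA at 6 h, limma called 0 of the 8 tested members and 0 of 9459 transcripts, 0 members and 1086 transcripts had an unadjusted p under 0.05, and voom called 0 members and 228 transcripts. The RNA changes of the 8 members at 6 h lay between -0.11 (Phlda3) and 0.35 (Mdm2).

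The change at 21 h against 6 h gives the later course. In footprints, 5 members were higher at 21 h than at 6 h and 1 was lower, against 15% higher and 15.7% lower of all transcripts. Gdf15 rose by a further 1.81 on the log2 scale, Plk2 by 1.48, Cdkn1a by 1.18, Trp53inp1 by 0.81 and Trp53 by 0.36. Ccng1, the one member that fell, changed by -0.60 ± 0.15 SE (adjusted p = 0.0200, limma), from 40.6 and 36.3 to 28.6 and 22.7 RPKM. The Ccng1 call was lost under 5 of 18 alternatives, among them eBayes without a trend and leaving out 6 h replicate 1 or 2 or 21 h replicate 2. That of Trp53 was lost under 6 of 18, among them eBayes without a trend and leaving out any of the 4 libraries compared. In RNA, Plk2 (1.66), Cdkn1a (1.39), Trp53inp1 (0.96) and Mdm2 (0.62) were higher at 21 h than at 6 h and 0 members were lower, against 7.53% and 8.20% of all transcripts. The RNA call of Trp53inp1 was lost under 10 of 18 alternatives and that of Mdm2 under 7 of 19. Those of Plk2 and Cdkn1a were kept under all 19. Fewer members passed when any 1 of the 4 libraries compared was left out, and fewer of all transcripts did. Unscaled RPKM moved the median RNA change of all transcripts between these times by 0.139 on the log2 scale, so the RNA changes are relative to that scaling.

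TE did not change by the threshold for any member. Limma called 0 of 8 members at 6 h, at 21 h and between the times. An unadjusted p under 0.05 was reached by 1 member at 6 h (Cdkn1a), 2 at 21 h (Mdm2 and Phlda3) and 1 between the times (Phlda3). Voom on the recovered reads called 1, Mdm2 at 21 h, and 0 in the other comparisons. Of all 9312 transcripts, limma called 0 in TE at 6 h, 0.258% as higher and 0.15% as lower at 21 h, and 0.591% and 0.419% between the times. Over all transcripts an unadjusted p under 0.05 was reached by 712 at 6 h, 1183 at 21 h and 1263 between the times, and voom called 19, 207 and 227. The ratio of footprint to RNA RPKM, taken within libraries of the same number, was 3.25 and 3.18 for Mdm2 with PBS, 2.55 and 2.41 at 6 h, and 2.12 and 1.43 at 21 h. The numbers do not pair the libraries of the assays (correlations of 0.0020 to 0.037), so the spread within a condition depends on this matching. With it, the 3 ranges of Mdm2 did not overlap and descended (log2 -0.80 ± 0.24 SE at 21 h, adjusted p = 0.199, limma, and 0.0483 with voom). For Phlda3 the ratio ascended, from 1.0 and 1.03 to 1.52 and 1.62 and then 1.92 and 2.62 (log2 1.14 ± 0.28 SE at 21 h, adjusted p = 0.107, limma).

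Cdkn1a had a ratio of 6.10 and 5.91 with PBS, 9.67 and 12.5 at 6 h, and 7.42 and 9.54 at 21 h. Both treated pairs were above PBS, with a log2 change of 0.79 ± 0.29 SE at 6 h (unadjusted p = 0.0183 and adjusted p = 0.523, limma). The ratio of Trp53 was 5.86 and 5.17 with PBS, 5.94 and 6.74 at 6 h, and 5.27 and 5.96 at 21 h (log2 0.08 at 21 h, 95% interval -0.26 to 0.42). Footprints and RNA of Trp53 thus rose together within that interval. Over the members tested with PBS, Trp53inp1 had the highest ratios, 8.20 and 9.79, and Phlda3 the lowest, 1.0 and 1.03, where the median of all transcripts was 3.37 and 3.25. The library total of RNA-seq includes the 3 abundant transcripts, so the size of each ratio is relative to that total.

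**Figure D3:**
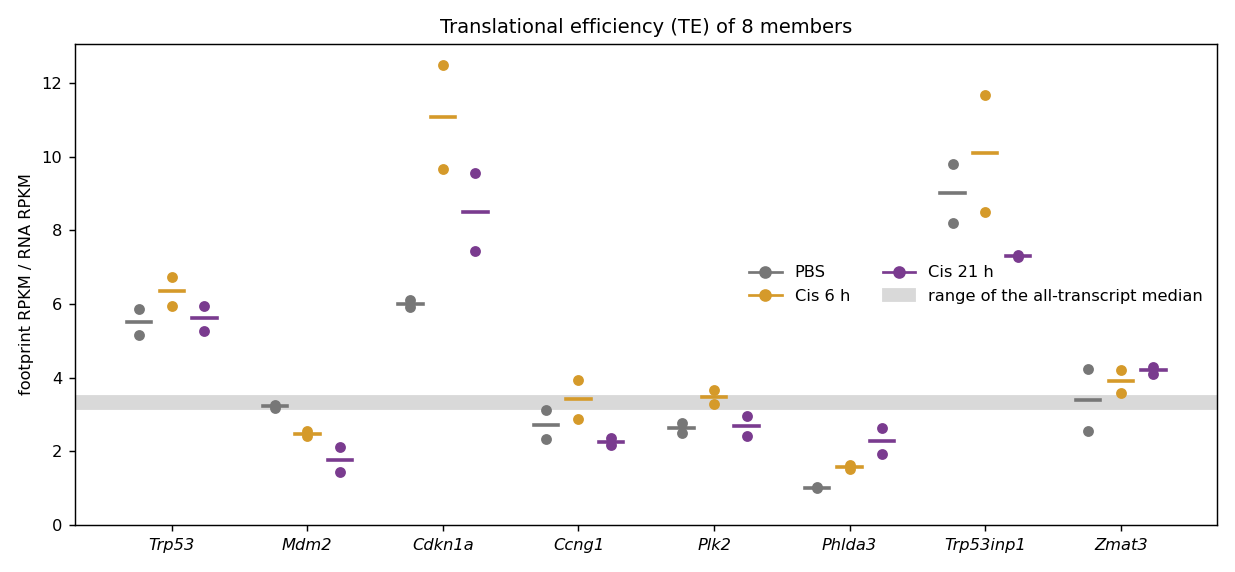
Footprint RPKM over RNA RPKM for the 8 members tested for TE, with a point for each pair of libraries of the same number, a bar for the mean of 2 and a grey band for the range of the median over all transcripts. Mdm2 descends from 3.25 and 3.18 with PBS to 2.12 and 1.43 at 21 h, Phlda3 ascends from 1.0 and 1.03 to 1.92 and 2.62, and neither passed in limma.

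Of 42 other genes of the p53 pathway, 35 were tested in footprints, and at 21 h 14 were higher and 4 lower (18.9% and 20.2% of all transcripts), with a median log2 fold change of 0.31. In RNA 33 were tested, 10 were higher and 0 lower (11.6% and 12.2% of all), and the median was 0.59. The counts by role below stand against the same shares, and several are near them. A log2 fold change above 1 as well left 10 calls in footprints and 5 in RNA, against 1350 of 10390 and 929 of 9459 transcripts. Among fits that left out a library, the footprint count fell most without PBS replicate 2 or 21 h replicate 2, where the count over all transcripts fell as well. Of the 4 lower calls, the number was 0 without 21 h replicate 2, 1 without PBS replicate 1 or 2, 2 without 6 h replicate 1 or 2 and 6 without 21 h replicate 1. Among such fits in RNA, the count fell most without PBS replicate 1 or 2 or 21 h replicate 2, and again the count over all transcripts fell as well. Of the cell cycle genes, 4 of 5 were higher in footprints and 5 of 5 in RNA. The largest rises were those of Btg2, an antiproliferative factor, Gadd45a, which blocks entry into mitosis, and Plk3.

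Btg2 footprints were 6.08 and 5.43 RPKM with PBS and 41.8 and 61.6 RPKM at 21 h (log2 3.00 ± 0.21 SE, adjusted p = 3.12e-05, limma), and its RNA rose by 2.69. Gadd45a footprints were 13.2 and 15.2 RPKM with PBS and 97.5 and 92.5 RPKM at 21 h (log2 2.67 ± 0.14 SE, adjusted p = 8.34e-06, limma), and its RNA rose by 2.26. Plk3 footprints were 2.47 and 3.31 RPKM with PBS and 16.1 and 16.2 RPKM at 21 h. All of these were clear of the PBS libraries.

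Among apoptosis genes, 3 of 9 were higher in footprints and 1, the death receptor Fas, was lower. Fas footprints were 4.70 and 3.28 RPKM with PBS, 1.74 and 2.42 RPKM at 6 h, and 1.66 and 0.875 RPKM at 21 h, from 24 reads in the highest library to 3 in the lowest. The log2 fold change at 21 h was -1.39 ± 0.34 (SE, adjusted p = 0.0115, limma) and was lost without PBS replicate 1 or 21 h replicate 2 (up to 0.0927). Its RNA was under the filter. Among regulators of p53, 1 of 6 was higher and 2 lower in footprints, Mdm4 and Usp7, with a median of -0.51, whereas 1 of 6 was higher and 0 lower in RNA. Of the repair genes 1 of 6 was higher, and of the metabolic and remaining genes 5 of 9 were higher and 1, the carbonyl reductase Dcxr, lower. Dcxr footprints were 8.66 and 8.50 RPKM with PBS and 6.67 and 4.69 RPKM at 21 h (log2 -0.61, adjusted p = 0.0422, limma). That call was lost under 12 of 18 alternatives, among them every fit that left out a library except 21 h replicate 1.

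**Figure D4:**
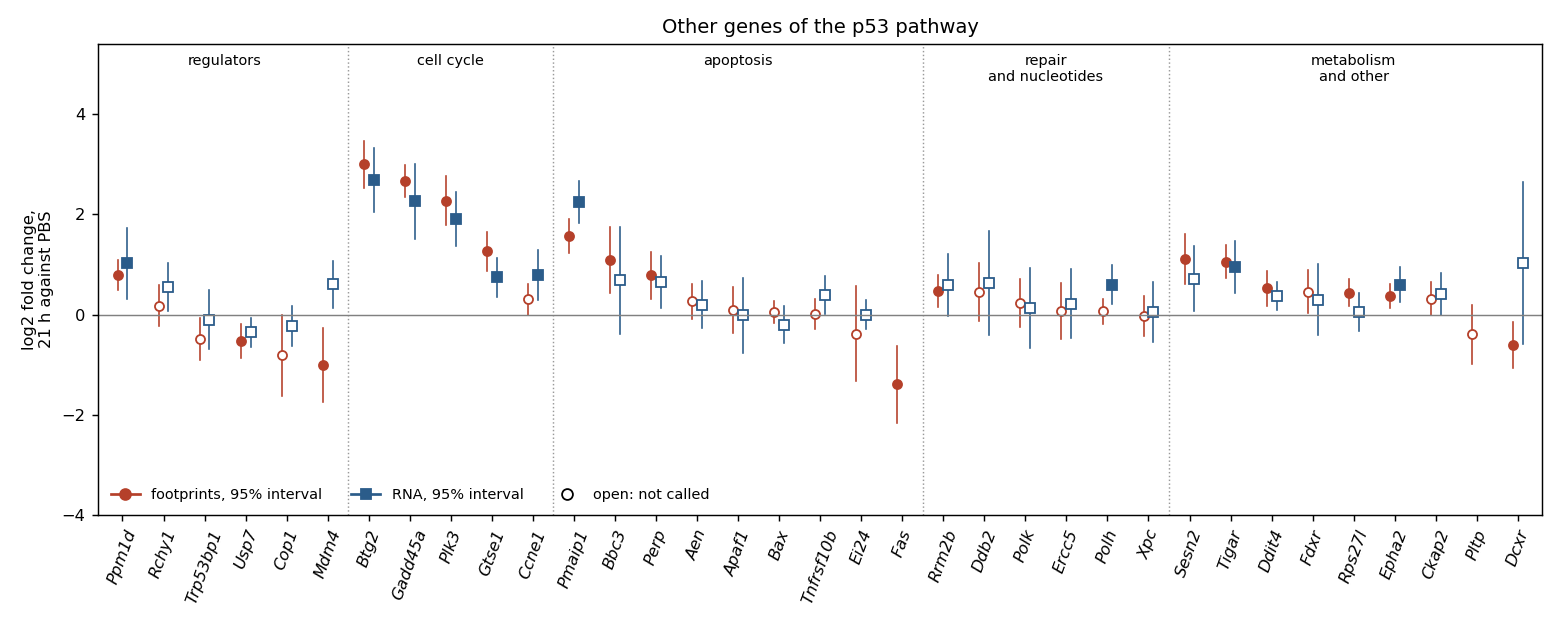
Log2 fold change at 21 h against PBS for the 35 other p53 pathway genes tested in footprints, grouped by role, with circles for footprints, squares for RNA, 95% intervals as bars and filled symbols for an adjusted p under 0.05. Btg2 (3.00), Gadd45a (2.67) and Plk3 (2.27) lead the cell cycle group, while Mdm4 (-1.01) and Fas (-1.39) fall furthest in footprints.

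The genes most like Trp53 over the 12 libraries, after centring each assay, were Ccdc117 (Pearson's r = 0.989), Klf10 (0.975) and Cdkn1a (0.973), out of 9311 compared. Those most like Cdkn1a were Zfp646 (0.976), Dusp4 (0.975) and Trp53 (0.973). The points share libraries and treatments, so these values only describe likeness of pattern.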

How the data were processed

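Footprints and RNA were measured in KPC cells in 12 libraries, 2 per assay and condition, grouped by the sample labels. A further engineered allele of the line is not reported here. The authors deposited RPKM per library for a representative Ensembl transcript of each gene. The submitters' processing notes name cutadapt, STAR and GRCm39, and per the labels footprints were made with RNase I and cycloheximide. The counter and its use of strand or shared reads are not given in the sources used here. A transcript that a library does not list was taken as 0 reads there.

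Multiplied by length, 100% of 144209 RPKM values were whole multiples of 1 read (tolerance 0.01), which gave the reads and depth. Median-of-ratios factors scaled the RPKM of each assay, and transcripts with a mean of at least 1 were kept. Limma 3.58.1 (R 4.3.3, eBayes with a trend) fitted log2(RPKM + 0.5) with the 3 conditions of an assay in 1 model, and TE as the interaction of assay and treatment. A fold change on this scale understates that of low genes. P-values are two-sided and adjusted over all transcripts by Benjamini-Hochberg, with a threshold of 0.05. For 2 libraries a side, p = 0.333 is the smallest that exact permutation allows. Intervals of read ratios are exact binomial (scipy 1.17.1) and cover counting error only. Promoters are RefSeq sequences on GRCm38.p6, matched by symbol and searched for the p53 half-site by name.

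The members, the lists of other genes and the alternatives were chosen with earlier results of these data known. All 10 members are named. Of the other pathway genes, those named are the 3 largest rises and 3 largest falls in footprints at 21 h among those called with both treated libraries beyond both PBS libraries. Paralogs, Wrap53, Ddit3 and Atf3 stand beside their members, and Usp7 was named after its value was seen. The alternatives varied the pseudocount (0.1 or 1), the filter (none, or a mean of 5 RPKM), the scaling (none or quantile), the eBayes trend, the groups fitted together, the replicate number as a block, voom on the recovered reads, the 3 most abundant RNA-seq transcripts (left out), the threshold (0.1, or a log2 change beyond 1 in addition) and each library in turn.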

Additional observations from a re-analysis of the deposited data

Results flagged for a closer look

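For several members the change at 21 h differed from that at 6 h by the test of 21 h against 6 h. In footprints the difference on the log2 scale was 1.81 for Gdf15, 1.48 for Plk2, 1.18 for Cdkn1a, 0.81 for Trp53inp1, 0.36 for Trp53 and -0.60 for Ccng1. In RNA it was 1.66 for Plk2, 1.39 for Cdkn1a, 0.96 for Trp53inp1 and 0.62 for Mdm2. The RNA call was lost under 10 of 18 alternatives for Trp53inp1 and 7 of 19 for Mdm2. The footprint call was lost under 6 of 18 for Trp53 and 5 of 18 for Ccng1. Ccng1 is the member whose footprints lay above both PBS libraries at 6 h and below both at 21 h. With 2 libraries per group no library could be tested as standing apart.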

How the results depend on the processing

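The number of members called stayed within 1.5 times its value under every alternative for footprints at 21 h (4 to 7), for RNA at 6 h and for TE at 6 h and between the times. For footprints at 6 h it was 1 in the report, 0 without the filter, without the trend and with a log2 fold change above 1 as well, and 2 with voom and at an adjusted p under 0.1, and leaving out a library gave 0 to 1. A log2 fold change above 1 as well gave 3 for footprints at 21 h against 6 h, 3 for RNA at 21 h and 2 for RNA at 21 h against 6 h, and leaving out a library gave 3 to 6 and 2 to 3 for those RNA comparisons. For TE at 21 h, voom gave 1. The causes were not tested, beyond the fewer samples or stricter rule of some alternatives.

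Of 1891 values recomputed for 97 single-gene results, 1743 kept their direction and side of the threshold, 89 were no longer past it, 19 came past it and 40 changed sign, of which 0 belonged to a called result. Signs changed with unscaled RPKM for Zmat3 footprints at 21 h (0.0015) and Ccng1 RNA at 6 h (-0.057). They changed with quantile normalization for Zmat3 (0.029) and Sesn1 (0.045) footprints and Plk1 RNA (-0.046) at 21 h, and with a pseudocount of 1 for Trp53inp1 TE at 21 h (0.11). Leaving out a library changed the sign of 22 small changes. In footprints at 6 h these were Zmat3 (-0.18 to 0.34) and Mdm2 (-0.21 to 0.018). In footprints at 21 h these were Zmat3 (-0.30 to 0.23), Ccng2 (-0.15 to 0.31) and Mdm2 (-0.084 to 0.45). In footprints at 21 h against 6 h these were Sesn1 (-0.0015 to 0.57), Zmat3 (-0.35 to 0.11), Phlda3 (-0.032 to 0.27) and Mdm2 (-0.0037 to 0.53). In RNA at 6 h these were Zmat3 (-0.17 to 0.047), Ccng1 (-0.13 to 0.14), Cdkn1a (-0.15 to 0.33) and Phlda3 (-0.31 to 0.080). In RNA at 21 h these were Plk1 (-0.086 to 0.19) and Ccng1 (-0.40 to 0.10). In RNA at 21 h against 6 h these were Ccng1 (-0.41 to 0.087). In TE at 6 h these were Zmat3 (-0.12 to 0.40) and Trp53inp1 (-0.022 to 0.27). In TE at 21 h these were Plk2 (-0.037 to 0.33), Trp53 (-0.049 to 0.20), Trp53inp1 (-0.16 to 0.092) and Ccng1 (-0.46 to 0.038).

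Libraries with the same replicate number did not deviate together (correlations of -0.01 to 0.04), so the numbers do not pair them. With the replicate number as a block, 5 members instead of 6 were called in footprints at 21 h, Phlda3 being lost, 1 at 6 h and 6 at 21 h against 6 h, and 5 and 4 in RNA at 21 h and at 21 h against 6 h. The 4 RNA calls at 21 h against 6 h were not the same genes, since Trp53inp1 was lost and Trp53 came past the threshold. Gdf15 and Sesn1 RNA, with at most 11 reads per library, limit what can be said of their mRNA and TE.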
